A study of Homo sapiens with 26 samples.

Results

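Ribosomes close to the outer mitochondrial membrane (OMM) were described by the messages they were translating, from 4 of the 26 samples of the series. These are the total input and the streptavidin pulldown of 2 lysates, replicates 1 and 2, of cells that carry mitochondrially located LOV-BirA. Genes were chosen by depth alone. Of 57770 entries that name 1 gene, 6728 had at least 64 ribosome footprints in the coding sequence (CDS) in both total inputs, and these are the genes described. They comprise 689 nuclear-encoded mitochondrial genes, 5 genes of the mitochondrial genome, 1763 genes whose protein has a hydrophobic stretch, and 4271 other genes. The stretch alone sets that class, called secretory below, and its members were not checked for a known location.

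In LOCL-TL, ribosomes near a bait are biotinylated and their footprints sequenced beside those of all ribosomes in the same lysate. All samples used here came from HEK293T, a human embryonic kidney line, in which the endogenous RPL29 gene, for a large-subunit ribosomal protein, was tagged with Avi, the peptide that BirA biotinylates. LOV-BirA is a form of this ligase switched on by blue light, and here it was fused to GFP and to the transmembrane domain (TMD) of OMP25, an OMM protein anchored by its C terminus. For comparison the same fit held 4 samples with LOV-BirA at the ER and 4 with LOV-BirA free in the cytosol, again total input and pulldown of 2 lysates each, so that all groups share the RPL29-Avi background and the treatment with cycloheximide (CHX), biotin and light. The tagged parent was 1 clone, the bait was expressed from the EF1α promoter (SFFV for the ER bait) after lentiviral delivery and sorted as a pool, and plates were pooled for each lysate. The transcript of the bait's own anchor, SYNJ2BP, is held only in an entry that names several genes and was not tested. In the total inputs, VIM stood at 3628 and 2355 reads per 1000000 CDS reads (RPM) and INA at 212 and 162, with NEFM, MYC, KRT18 and KRT8 lower, down to 3.43 and 4.85 RPM for KRT8. PTPRC had 1 read and UMOD, SLC34A1, AQP2, SLC12A1 and HBB, markers of differentiated kidney or blood, had 0 reads.

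Nearly all mitochondrial proteins are encoded in the nucleus, made by cytosolic ribosomes and imported through TOM in the outer membrane and TIM23 in the inner membrane. Many carry an N-terminal presequence, rich in basic and poor in acidic residues, that the processing peptidase of the matrix removes. Most carriers of the inner membrane, tail-anchored proteins and beta-barrel proteins of the OMM lack one. Mitochondria also hold their own ribosomes, which translate the few genes of mitochondrial DNA and contain no RPL29.

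The beginnings of 8 coding sequences show which kinds of N terminus the genes below start with. Each is the initial 30 bases of the coding sequence in GENCODE 44 on GRCh38, 5′ to 3′ on the coding strand, and capitals mark codons for the basic residues arginine and lysine. The first 4 belong to genes with a presequence that were enriched with the OMM bait, and the next pair to mitochondrial genes without one that were not. The last pair belongs to enriched long genes outside the mitochondrial list.
IARS2: atgCGTtgggggctgCGCcctCGCgggccg
PMPCA: atggcggctgtggtgctggcggcgacgCGG
LETM1: atggcgtccatcttactgAGGagctgcCGC
COX5B: atggcttcaAGGttacttCGCggagctgga
SLC25A5: atgacagatgccgctgtgtccttcgccAAG
TOMM70: atggccgcctctAAAcctgtggaggcagcg
NRIP1: atgactcatggagaagagcttggctctgat
PRKAR2A: atgagccacatccagatcccgccggggctc
They lie at chr1:220094217-220094246 (IARS2, plus strand), chr9:136410669-136410698 (PMPCA, plus), chr4:1855921-1855950 (LETM1, minus), chr2:97646087-97646116 (COX5B, plus), chrX:119468516-119468545 (SLC25A5, plus), chr3:100400920-100400949 (TOMM70, minus), chr21:14968163-14968192 (NRIP1, minus) and chr3:48847567-48847596 (PRKAR2A, minus). IARS2 holds 3 basic codons in this stretch, LETM1 and COX5B 2 each, and NRIP1 and PRKAR2A 0. Over residues 2 to 31 the net charge, arginine and lysine less aspartate and glutamate, is 5 in IARS2, PMPCA and COX5B, 6 in LETM1, 0 in SLC25A5 and TOMM70, −5 in NRIP1 and −3 in PRKAR2A.

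CDS reads came to 5091524 and 5455806 in the total inputs and to 1025114 and 2506515 in the pulldowns, so counts in the pulldown of replicate 1 limit the precision for weakly expressed genes. The labels name no sequencing run, but by the data folders named in the file headers replicate 1 and replicate 2 lie in different folders and each pulldown in the folder of its own total input. Changes were fitted with edgeR's quasi-likelihood test as pulldown against total input, with a term for each lysate, and are given as log2 values, of which 1145 genes (17.0%) were enriched and 3101 (46.1%) depleted at a two-sided, Benjamini-Hochberg adjusted p below 0.05. Of these 4246 calls, 4241 had the same sign in both replicates. The calls were made on these same lysates, so this agreement follows in part from the call. A change is a share of the reads of a sample, and the median over all genes was −0.38. TMM scaling, which takes most genes as unchanged, lifted all values by about 0.35 and gave 1814 enriched (27.0%) and 1477 depleted genes (22.0%). For function lists and the main length classes the median is therefore also given relative to the median of all genes. More ribosomes of a message near the OMM and more complete biotinylation of those ribosomes cannot be told apart in these bulk samples.

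**Figure D1:**
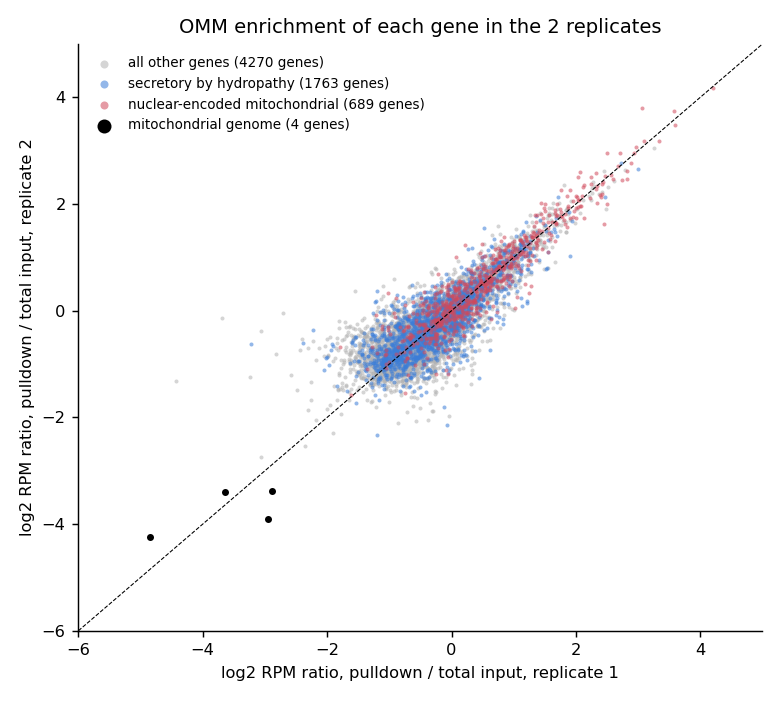
Log2 ratio of CDS RPM, pulldown over total input, in replicate 1 (horizontal) against replicate 2 (vertical), 1 point per gene with reads in every sample. The dashed line marks equal values. Nuclear-encoded mitochondrial genes (red) make up most of the points above 2, and genes of the mitochondrial genome (black) lie apart at the lower end.

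The genes that rose most were mainly those of long mitochondrial proteins. ALDH18A1, which makes the proline precursor pyrroline-5-carboxylate, took 187 and 192 RPM in the total inputs and 3431 and 3460.2 RPM in the pulldowns (log2 4.19, SE 0.10, edgeR adjusted p=2.7e-14). The gene spans chr10:95605941-95656711 on the minus strand of GRCh38. Its pulldown levels were higher than either total input, and almost the same in both replicates. IARS2, the mitochondrial isoleucyl-tRNA synthetase, rose from 220.0 and 258 to 2665 and 2871 RPM (3.53, SE 0.10, adjusted p=1.5e-13). GUF1, a mitochondrial translation factor at chr4:44678420-44700928, went from 35.8 and 33.2 RPM to 299 and 460.1 RPM (3.45, SE 0.17, adjusted p=1.1e-10). GUF1 varied more between replicates than the other genes at the top, with ratios of 3.06 and 3.79, and still the groups did not overlap.

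Among the 12 largest rises, from 2.81 to 4.19, 10 are nuclear-encoded mitochondrial genes and 11 encode more than 400 aa. OXCT1, the ketone body transferase of the matrix, rose from 77.8 and 118 to 606 and 998 RPM (3.02). GPAM, the glycerol-3-phosphate acyltransferase of the OMM, spans the membrane and has no presequence, yet it rose from 35.2 and 36 to 299.7 and 328 RPM (3.14). LETM1, a cation exchanger of the inner membrane, went from 96.5 and 91.4 to 710.1 and 623 RPM (2.82), and METTL17, a factor for mitochondrial ribosome assembly counted over 16.8% of its length, from 27.3 and 23.9 to 179 and 184 RPM (2.84). EXD2, an exonuclease, rose from 26.9 and 30.8 to 207 and 239.8 RPM (2.95), and it was also enriched with the ER bait (1.70). None of the 12 was depleted with the cytosolic bait (5.81% of all genes were), and 7 were depleted with the ER bait (72.7% of all genes were).

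**Figure D2:**
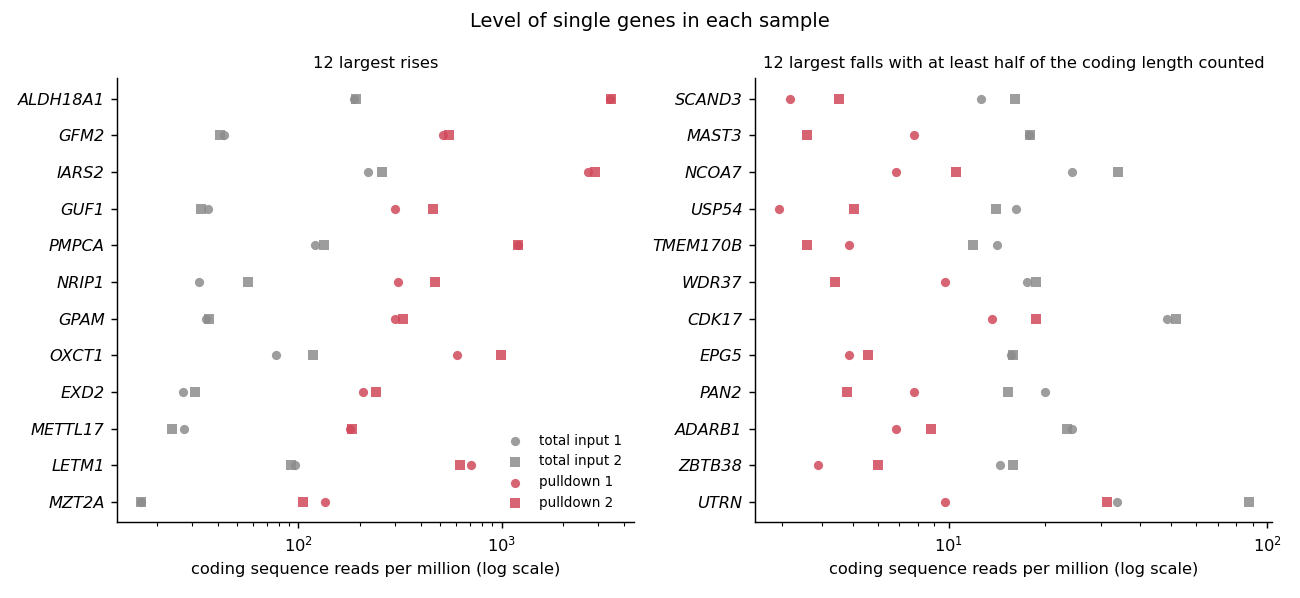
CDS RPM (log axis) of single genes in the total input (grey) and pulldown (red) of replicate 1 (circles) and replicate 2 (squares). Left, the 12 largest rises; right, the 12 largest falls among genes with at least 50% of the coding length counted. These 24 genes were picked on the same samples for a call and a large change, so a gap between the fractions follows in part from the choice.

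Protein length divided the mitochondrial genes. Of 173 that encode fewer than 200 aa, 137 were enriched and 1 was depleted, with a median of 0.95 (1.33 relative to all genes; replicate medians 0.93 and 0.96). Of 273 with 200 to 400 aa, 74 were enriched and 32 depleted around 0.06 (relative 0.44). Of 242 with more than 400 aa, 115 were enriched and 38 depleted around 0.29 (relative 0.67). The short genes moved together, while the long ones spread widely. A called log2 change above 1, which 6.08% of all genes reached, was found in 45.1% of the short genes, 4.40% of the middle group and 28.1% of the long ones. In finer classes the median was 1.53 below 100 aa, 0.84 from 100 to below 200 aa, 0.27 above 400 and below 600 aa, 0.62 from 600 to below 800 aa and −0.01 in the 31 genes of 800 aa or more, of which 12 were enriched and 10 depleted.

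Outside mitochondria the order by length was a plain descent. Short genes again lay high, with 387 of 699 enriched, 49 depleted and a median of 0.46 (relative 0.84). The middle group had 306 enriched and 445 depleted of 1580 around −0.13, and the long one 126 enriched and 2529 depleted of 3753 around −0.66. Among genes that are neither mitochondrial nor secretory, the median stepped down from 0.90 below 100 aa, where 60 of 78 were enriched and 0 depleted, to −0.83 at 800 aa or more, where 11 of 997 were enriched and 844 depleted. Along the same classes the medians with the ER bait fell from −0.36 to −1.12, by less than with the OMM bait. With the cytosolic bait they went the other way, from −0.28 below 100 aa to 0.05 at 800 aa or more. The relative medians of mitochondrial genes and of genes outside mitochondria were 1.33 and 0.84 below 200 aa. They were 0.44 and 0.25 in the middle group, where 32 of 273 and 445 of 1580 were depleted. Above 400 aa they were 0.67 and −0.28.

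**Figure D3:**
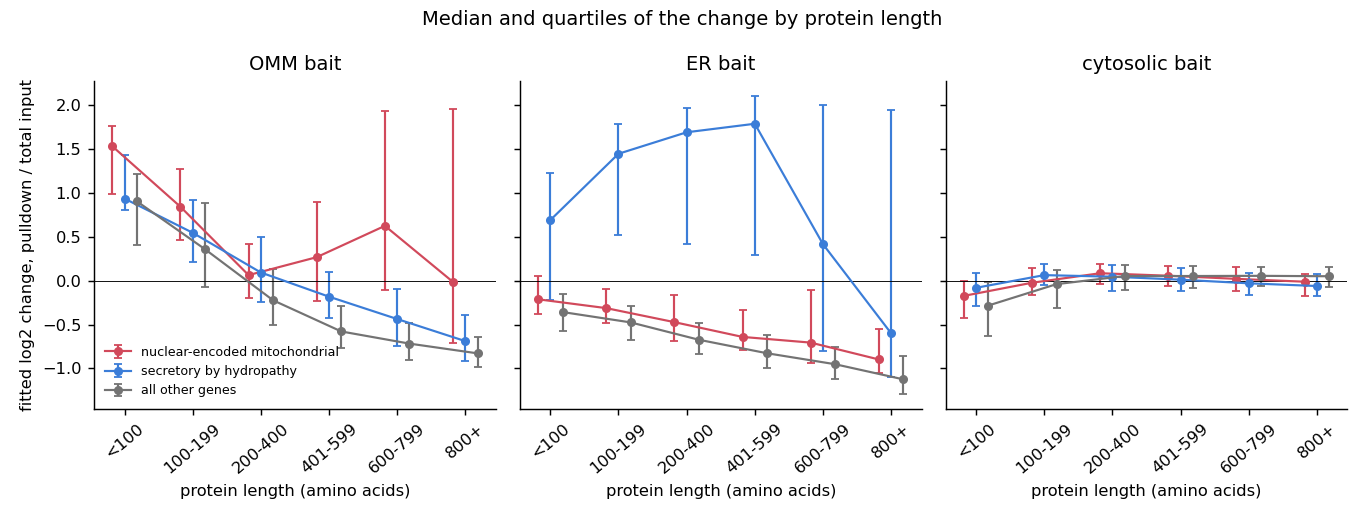
Median (points) and quartiles (bars) of the fitted log2 change, pulldown over total input, against protein length in amino acids for the OMM, ER and cytosolic baits. With the OMM bait the medians of other genes (grey) run from 0.90 to −0.83 with length. Those of mitochondrial genes (red) lie above them in every class, and furthest above 400 aa.

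Within mitochondria the inner membrane stood highest. Of its genes 118 (59.3%) were enriched and 11 depleted, with a median of 0.59, and of 348 matrix genes 152 and 36, with a median of 0.23. The intermembrane space had 19 enriched and 5 depleted of 38 (median 0.38) and the outer membrane 21 and 11 of 56 (0.13). Length went with these differences. Short genes of the inner membrane had a median of 1.27, with 64 of 71 enriched and 0 depleted, and those of the matrix 0.80, with 45 of 59 enriched. Long genes had a median of 0.57 in the inner membrane and of 0.29 in the matrix, where 47 of 143 still exceeded 1. Of 19 long genes of the outer membrane 6 were enriched and 9 depleted, around −0.35. In the intermembrane space 12 of 16 short genes, 3 of 11 of 200 to 400 aa and 4 of 11 long ones were enriched, with medians of 0.88, 0.21 and −0.10, and CHCHD2 (1.76), NDUFAF8 (1.69) and CHCHD10 (1.68) led it.

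Subunits of the respiratory chain moved nearly as 1 group, with 52 of 61 enriched and 2 depleted (median 1.11). All 9 nuclear-encoded complex IV subunits tested were enriched, with a median of 1.72. COX6C, a subunit of cytochrome c oxidase, rose from 353 and 382 to 2093 and 2239 RPM (2.56), and COX5B, another, from 642 and 619.7 to 2623 and 2608 RPM (2.05, SE 0.09, adjusted p=2.5e-11). COX7A2L, a supercomplex factor counted with them, had the smallest change, from 63.6 and 64.6 to 113 and 110.0 RPM (0.79). Every pulldown lay above every total input in these genes, which were picked on the same samples. Complex I subunits had 22 enriched and 2 depleted of 25 (median 1.11), led by NDUFB1 (2.26), NDUFB9 (2.09) and NDUFA6 (1.97). The depleted pair was NDUFS1 (−0.38), the longest subunit, and NDUFS7 (−1.20). The value of NDUFS7 rests on 32.4% of its coding length, and with reads over all exons it was 0.27 and enriched. ATP synthase subunits had 14 of 15 enriched and 0 depleted (median 1.00), from ATP5MC1 (1.8), ATP5MK (1.77) and ATP5ME (1.76) to ATP5PB, which was not called (−0.04). Of 8 complex III subunits 5 were enriched, with UQCRQ at 2.27, UQCRC1 at 1.82 and UQCR10 at 1.76, and UQCRC1 was counted over 14.3% of its length and at 3.25 over all exons.

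Genes that serve mitochondrial gene expression and protein import include many of the long enriched ones. Of 15 mitochondrial tRNA synthetases, mostly long enzymes that charge tRNA in the matrix, 11 were enriched and 0 depleted (median 1.05). AARS2 rose from 68 and 45.7 to 341 and 275 RPM (2.46) and FARS2 from 24.2 and 22.2 to 129.7 and 101 RPM (2.30), while PARS2 (−0.25) and WARS2 (−0.31) were not called. Of the 17 cytosolic tRNA synthetases tested 0 were enriched and 15 depleted around −0.60 (relative −0.23), and under TMM 1 was enriched and 6 were depleted. Of 12 mitochondrial translation factors 8 were enriched and 0 depleted (median 0.96), among them MTIF2, which rose from 33.3 and 28.8 to 139 and 174 RPM (2.35). The 68 mitochondrial ribosomal genes had 44 enriched and 3 depleted (median 0.57). PTCD3, a long RNA-binding subunit, was the highest of them with 105 and 121 RPM in the total inputs and 739.6 and 746 RPM in the pulldowns (2.72). The lowest, MRPL21 (−1.64), was counted over 3.88% of its coding length and was enriched (1.03) with reads over all exons.

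In preprotein cleavage, the step that removes presequences, 5 of 6 genes were enriched (median 1.49). PMPCA, the alpha subunit of the processing peptidase, rose from 120.4 and 134 RPM to 1211 RPM in each pulldown (3.25), and MIPEP, the intermediate peptidase, from 50.7 and 55.8 to 339 and 306 RPM (2.59). In TIM23, 4 of 6 genes were enriched, from TIMM17B (1.10) and ROMO1 (1.08) to TIMM23, which was not called (−0.34). Of 6 TOM genes 1 was enriched, TOMM7 (2.12), and 1 depleted, TOMM70 (−0.58), the receptor for carriers. Genes of mitochondrial DNA maintenance did not move as a group, with 4 enriched, 6 depleted and a median of −0.08 over 19. POLRMT, the RNA polymerase (2.16), SSBP1 (1.09) and TFB2M (1.03) lay at the upper end, and DNA2 (−0.90) and RECQL4 (−1.03), a nuclease and a helicase that also work in the nucleus, at the lower.

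Carriers of the SLC25A family, which move metabolites across the inner membrane and are mostly, but not all, imported without a presequence, stayed near the middle. Of 24 tested 2 were enriched and 5 depleted, and 0 exceeded 1. The citrate carrier SLC25A1 had the highest value, 95.6 and 75.3 RPM in the total inputs and 141 and 119 RPM in the pulldowns (0.61, SE 0.12, adjusted p=4.4e-04). SLC25A13, the aspartate-glutamate carrier, fell from 256.1 and 265 to 141 and 165 RPM (−0.75), and SLC25A21 from 27.1 and 28.6 to 7.8 and 18 RPM (−0.98). The family median of 0.07 was 0.45 relative to all genes, close to the 0.44 of all mitochondrial genes of 200 to 400 aa. Enzymes of fatty acid oxidation (9 enriched and 1 depleted of 15, median 0.52) and of the TCA cycle (5 and 1 of 13, median 0.22) were mixed. MMUT (2.5) and PCCB (2.4) of propionate breakdown lay high, and CROT, a peroxisomal acyltransferase on the list, low (−1.03).

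Subunits of the same enzyme could differ, though the share of the coding length that was counted bears on several pairs, all picked after their values were seen. SUCLG2, the GTP-forming beta subunit of succinyl-CoA ligase, rose from 35.3 and 52.3 to 177 and 254 RPM (2.29), whereas its alpha partner SUCLG1 had 138 and 151 RPM and 124 and 145 RPM (−0.10, not called). The gap was 2.48 and 2.34 in the replicates, and with reads over all exons the values were 2.29 and 0.06. HADHB, the beta subunit of the trifunctional protein, rose from 206 and 241 to 1322 and 1578 RPM (2.7) and HADHA, the alpha subunit, by less (0.67). HADHA was counted over 8.68% of its coding length, and over all exons the values were 2.68 and 1.92. PMPCB, the partner of PMPCA, was at 1.15 over 30% of its length and at 2.39 over all exons, where PMPCA was at 2.99. The gap thus stayed in the succinyl-CoA ligase pair and shrank in the other pairs when all exons were counted.

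Long mitochondrial genes were also sorted by the charge of their N terminus. Where residues 2 to 31 had a net charge of 0 or below, 4 of 30 were enriched and 17 depleted, with a median of −0.48. With a charge of 1 to 2 the median was 0.13 over 24 genes, with 3 to 4 it was 0.59 over 97, of which 57 were enriched and 9 depleted, and with 5 or more 0.38 over 91, with 44 and 8. Replicate medians in the lowest class were −0.60 and −0.43, below those of each other class. Within matrix and inner membrane alone the medians were −0.36 in 9 genes, 0.52 in 17, 0.59 in 88 and 0.32 in 83. Outside mitochondria, long genes had medians of −0.70, −0.60, −0.57 and −0.70 in the same classes. In short mitochondrial genes they were 0.63, 1.08, 0.94 and 1.00, and in those of matrix and inner membrane alone 1.16, 1.09, 0.96 and 0.88, highest in the lowest class. Of all 39 short mitochondrial genes with a net charge of 0 or below, 28 were enriched. The 68 long mitochondrial genes above 1 held on average 0.65 acidic residues in this stretch and the 174 others 1.45, while arginine averaged 3.94 and 3.79. These values describe the classes and were not tested.

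Proteins that stay in the OMM itself ranged widely, and differences between the lists below were not tested. Of 12 proteins listed as tail-anchored, 6 were enriched and 2 depleted (median 0.40, relative 0.78). TOMM7, a small TOM subunit, rose from 278 and 256.1 to 1194 and 1134 RPM (2.12), and FIS1, a fission adaptor, from 50.7 and 57.9 to 122 and 131 RPM (1.22). MAVS, the antiviral signalling adaptor, fell from 99.3 and 67.6 to 49.8 and 50.3 RPM (−0.66), and MCL1, a BCL2 relative, from 247 and 218 to 154 RPM in each pulldown (−0.58). MIGA1, a lipid-binding protein of 600 aa, was also enriched (1.17). It was counted on this list, but a C-terminal anchor was not checked and should not be assumed for it. Of 6 proteins with an N-terminal anchor (median 0.27, relative 0.65) AKAP1 (2.31), ARMCX3 (1.65) and CYB5R3 (0.36) were enriched and TOMM70 (−0.58) was depleted, while TOMM20 (0.17) and MIEF1 (−0.23) were not called. Of 11 proteins with several membrane segments 4 were enriched and 1 depleted (median 0.12, relative 0.49), among them TSPO (1.43), FUNDC2 (0.86) and MARCHF5 (−0.50), the last depleted. None of the 4 beta-barrel proteins was called (median −0.11, relative 0.27). VDAC3 (0.01), TOMM40 (−0.01), VDAC2 (−0.21) and VDAC1 (−0.22) had similar levels in all 4 samples, for example 141 and 178 RPM in the total inputs and 124 and 150.0 RPM in the pulldowns for VDAC1.

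AKAP1, which binds mRNA and protein kinase A at the OMM (gene at chr17:57085092-57121346), rose from 103 and 74.7 to 487 and 385 RPM (2.31, SE 0.10, adjusted p=5.8e-11). It was enriched with the ER bait too (1.81), and the difference between baits was 0.49 (adjusted p=0.0080, edgeR contrast). The list it heads, of RNA-binding proteins discussed for mRNA at the OMM, had 10 of 12 depleted and a median of −0.89 (relative −0.51). Of all genes 46.1% were depleted. Among genes of 800 aa or more that are neither mitochondrial nor secretory, 844 of 997 were, with a median of −0.83. The length of the members was not taken into account. CLUH, which binds messages for mitochondrial proteins, fell from 273 and 218 to 139 and 107 RPM (−1.0), and PUM2 from 128 and 124 to 45.4 and 70.6 RPM (−1.07). LARP4, a binder of AKAP1, fell from 79.6 and 99.9 to 37.5 and 51.3 RPM (−1.02), but only 29.6% of its coding length was counted and over all exons its value was −0.11.

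The type II regulatory subunits of protein kinase A, which AKAP1 anchors, were enriched as well, although they are soluble and not on the mitochondrial list. PRKAR2A (chr3:48744597-48847874, minus strand) rose from 203 and 197 to 568 and 596 RPM (1.54, SE 0.09, adjusted p=1.5e-09), and PRKAR2B from 35 and 28 to 81 and 74.6 RPM (1.32). Both were depleted with the ER bait (−1.0 and −0.56), and neither was called with the cytosolic one. Of the type I subunits PRKAR1B was tested and not called (−0.48). The catalytic subunits PRKACA and PRKACB were depleted. PRKACA fell from 90.1 and 84.5 to 41.6 and 66.6 RPM (−0.62) and PRKACB from 39.1 and 52.8 to 21.8 and 25.1 RPM (−1.0). This family was looked up after the value of PRKAR2A was seen.

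PRKAR2A belongs to 30 genes outside the mitochondrial list that encode more than 400 aa and exceeded 1, which is 0.799% of such genes. Of these 15 have a hydrophobic stretch, 15 of the 30 were enriched with the ER bait (19.6% of all genes were), and several of them rest on few counted positions. HSP90B1, an ER chaperone, was at 1.2 over 14.0% of its coding length and at −0.13 over all exons. The other 15 lack a hydrophobic stretch. Of these, 14 were higher with the OMM bait than with the ER bait (30.9% of all genes were). All 15 were chosen for a large rise with the OMM bait in the same fit, so this count follows in part from the choice. NRIP1, a nuclear receptor corepressor at chr21:14961235-15065936, rose from 32.4 and 56.5 to 310.2 and 470.4 RPM (3.15, SE 0.15, adjusted p=9.6e-11). RSPRY1 went from 21.7 and 20.0 to 149 and 124 RPM (2.7), and RESF1, which acts on retroelements in the nucleus, from 19 and 44.4 to 117 and 239.6 RPM (2.51). BCOR, another corepressor, rose from 613 and 616 to 1433 and 1849 RPM (1.41). DEF8 (2.00), BAHCC1 (1.54), FEM1B (1.23) and PPM1G (1.12) were enriched as well, PPM1G also with the ER bait (0.47). The exception was TACC1, which was at 1.21 with the OMM bait and 2.04 with the ER bait (difference −0.83, edgeR adjusted p=0.0015). N-terminal net charges of the 15 ran from −6 to 2. Of all 3753 long genes outside mitochondria, 2158 had a charge of 0 or below and 818 of 1 to 2. The long mitochondrial genes above 1 averaged 4.13, with a median of 4, which was also the median of those not above 1.

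The remaining large rises outside mitochondria were short. Among the 12 largest, from 2.28 to 3.15, 9 encode fewer than 200 aa. MZT2A and MZT2B are near-identical subunits of the gamma-tubulin complex. At positions to which reads align uniquely, they were counted over only 17.8% and 37.5% of their length. MZT2B rose from 40.8 and 34.1 to 271 and 231 RPM (2.75) and MZT2A by 2.81. SIVA1, a small proapoptotic protein, went from 251 and 148 to 1379 and 908 RPM (2.53). EMC6, a small subunit of the ER membrane insertase, rose from 27.4 and 25.9 to 151 and 114 RPM (2.30) and was higher than with the ER bait by 1.40 (adjusted p=3.9e-05).

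Cytosolic ribosomal proteins had the highest medians of the 26 function lists. Of 39 large-subunit proteins tested 35 were enriched and 2 depleted (median 0.81, relative 1.19), and of 28 small-subunit proteins 23 were enriched and 0 depleted (1.06, relative 1.44). With the ER bait their medians were −0.50 and −0.49 and with the cytosolic bait −0.11 in each. Compared directly, 39 of 39 and 28 of 28 were higher with the OMM bait than with the ER bait (30.9% of all genes were higher and 18.7% lower), and 35 and 25 higher than with the cytosolic bait (16.0% higher and 39.4% lower over all genes). RPS29 (chr14:49570984-49599164) rose from 761 and 876 to 4364 and 4346 RPM (2.41, SE 0.12, adjusted p=1.2e-10). RPLP1 went from 674 and 595 to 3258 and 3185 RPM (2.35), RPS18 from 276 and 269.6 to 1436 and 1224 RPM (2.28) and RPL37A from 636 and 761 to 2585 and 2839 RPM (1.96). In each, both pulldowns lay above both total inputs, but these genes were picked as the highest of their lists. RACK1 (0.13), RPS2 (0.17), RPS4X (0.17) and RPL3 (0.04), all longer than most of the list, were not called, and RPL4, longer still, fell from 822 and 1113 to 512 and 723 RPM (−0.65). RPL11 was at −1.58 over 25.1% of its length and at 1.33, enriched, over all exons. The tagged RPL29 itself rose slightly, from 164 and 233 to 218 and 269 RPM (0.29), with totals and pulldowns that overlapped. RPLP1 was counted over 18% of its length and RPS18 over 9.37%, and over all exons they were at 2.32 and 1.63.

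Lists of other cytosolic and nuclear complexes mostly had medians below that of all genes. Of 32 genes for tubulin, actin and their motors 4 were enriched and 25 depleted (median −0.81, relative −0.43). KIF11, a spindle kinesin, fell from 191 and 271 to 91.3 and 110.2 RPM (−1.20) and SPTAN1, a spectrin, from 975 and 1088 to 455 and 478 RPM (−1.14), while ARPC2 (0.51), ARPC3 (0.41) and CFL1 (0.30) were enriched. Nuclear pore proteins had 0 enriched and 18 depleted of 22 (−0.73, relative −0.35), with NUP133 at 957 and 974 RPM in the total inputs and 487 and 481 RPM in the pulldowns (−1.0). The spliceosome core had 5 enriched and 24 depleted of 31 (−0.73, relative −0.35). PRPF8 fell from 2239 and 2049 to 1067 and 1019 RPM (−1.04), and the small Sm proteins SNRPD2 (1.28) and SNRPE (1.23) rose. Replication and chromatin assembly had 3 and 30 of 38 (−0.61, relative −0.23), with RPA3, the small subunit of replication protein A, enriched (1.24) and MCM4 depleted (−1.61 over 19.1% of its length, −1.10 over all exons). Cytosolic chaperones had 4 and 17 of 24 (−0.59, relative −0.21). In these lists TMM left 19 depleted genes of tubulin, actin and motors, 12 of the nuclear pore, 18 of the spliceosome, 19 of replication and 11 of the chaperones. Cytosolic translation factors lay close to all genes, with 6 enriched and 18 depleted of 36 (−0.48, relative −0.10; 10 and 10 under TMM), from EIF3G (0.94) and EIF1 (0.80) to EIF5B, which fell from 534 and 752 to 207 and 317 RPM (−1.3).

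Proteasome subunits (7 enriched and 12 depleted of 28, median −0.22, relative 0.16), glycolytic enzymes (0 and 6 of 11, −0.30, relative 0.075), RAB GTPases (1 and 4 of 16, −0.27, relative 0.10) and SNAREs with other tail-anchored proteins (4 and 5 of 20, −0.22, relative 0.16) lay close to the median of all genes. The same held for genes of cholesterol and fatty acid synthesis (2 and 10 of 23, −0.24, relative 0.14) and peroxisome biogenesis (2 and 4 of 10, −0.24, relative 0.14). With plasma membrane carriers (0 and 10 of 22, −0.34, relative 0.037) and the beta-barrel proteins, these are the 8 of 26 lists whose median turned positive under TMM. PSMA7, a core proteasome subunit, was an exception and rose from 676 and 532 to 1708 and 1500.5 RPM (1.42). ABCD3, a peroxisomal transporter, rose from 274 and 306 to 568 and 691 RPM (1.12). Of 8 histone genes 2 were enriched and 2 depleted (median 0.01, relative 0.39).

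**Figure D4:**
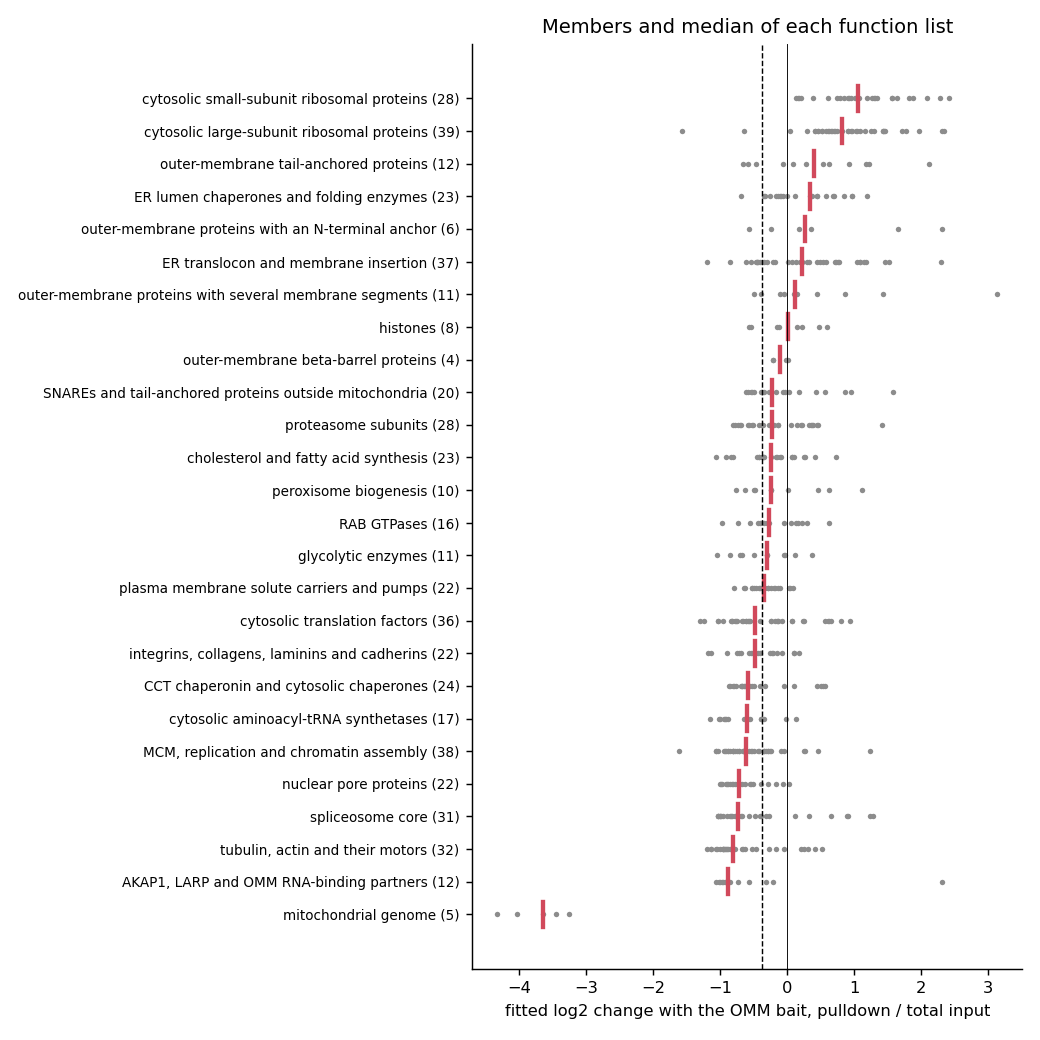
Fitted log2 change with the OMM bait, pulldown over total input, of each member (grey points) and the median (red bar) of 26 function lists, with the number of genes tested in brackets. The dashed line is the median of all genes, −0.38. Cytosolic ribosomal proteins lie at the top with medians of 1.06 and 0.81, and the mitochondrial genome lies at the bottom with −3.65.

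Lists of secretory genes had the following values, and differences between them were not tested. Lumenal chaperones and folding enzymes had 12 enriched and 4 depleted of 23 (median 0.34, relative 0.72, and relative 0.33 over all exons), and the translocon and insertion machinery 18 and 10 of 37 (0.23, relative 0.60), led by EMC6, SEC61G (1.53) and SEC61B (1.46), with SRP68 lowest (−1.20, over 9.45% of its length). Integrins, collagens, laminins and cadherins had 0 and 12 of 22 (−0.48, relative −0.10, with 2 and 2 under TMM). With the ER bait these lists had medians of 2.21, 1.58 and 2.26. The 592 genes of 800 aa or more with a hydrophobic stretch had medians of −0.69 with the OMM bait and −0.60 with the ER bait. Directly compared, 0 of the 23 lumenal genes were higher with the OMM bait and 20 were lower, and 6 of the 37 translocon genes were higher and 24 lower. Over all 1763 genes with a hydrophobic stretch, 158 were higher with the OMM bait than with the ER bait and 1006 lower. Of the 689 nuclear-encoded mitochondrial genes, 435 were higher and 48 lower, and against the cytosolic bait 303 were higher and 66 lower. TMM turned the calls over all genes from 2080 higher and 1255 lower to 1067 and 1439 against the ER bait, and from 1079 and 2649 to 1685 and 1223 against the cytosolic bait. In replicate 2, whose ER and OMM samples are in the same folder by the file headers, the median difference from the ER bait was 0.70 for mitochondrial genes and 0.23 for all genes.

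At the depleted end, 578 genes (8.59%) fell below −1. Of the 3101 depleted genes 2766 were depleted with the ER bait as well (72.7% of all genes were) and 4.29% with the cytosolic bait (5.81% of all genes). Most of the deepest falls came from genes with few countable positions. Across all genes the median share of the coding length counted was 88.2%, but 10 of the 12 largest falls outside the mitochondrial genome had less than 50% counted, and 9 of the 12 were depleted with the cytosolic bait. H2BC21, a histone gene counted over 11.3% of its length, fell from 853 and 787 to 103 and 118 RPM (−2.87), and its values were −2.91 and −3.12 with the ER and cytosolic baits. DDX3X, an RNA helicase, fell from 46.1 and 46.4 to 9.34 and 12.8 RPM (−1.98) over 5.98% of its length, again with all baits, and over all exons it was at −0.95. Genes with less than 25% counted are 549 of 6728 but hold 14 of the 36 falls below −1.5, against 19 of the 163 rises above 1.5.

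The picture differed where at least 50% of the coding length was counted, a limit set after the values were seen. Of the 12 largest falls there, from −1.54 to −1.93, 11 encode more than 400 aa. With the ER bait 11 were depleted (72.7% of all genes) and with the cytosolic bait 0 (5.81% of all genes). Their changes with the cytosolic bait ran from −0.47 to 0.22. CDK17, a cyclin-dependent kinase, fell from 48.5 and 51.7 to 13.7 and 18.8 RPM (−1.58, SE 0.20, adjusted p=4.8e-06) and NCOA7 from 24.4 and 33.9 to 6.83 and 10.6 RPM (−1.74). UTRN, a giant relative of dystrophin, fell from 33.8 and 87.6 to 9.76 and 31.5 RPM (−1.54), so the lower total input lay only just above the higher pulldown. Pulldown reads behind these 12 genes ranged from 3 to 79, so their order is not resolved.

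The 5 genes of the mitochondrial genome that were tested were all depleted, with a median of −3.65, and they were depleted with the ER and cytosolic baits too (medians −5.47 and −5.14). MT-ND5 had 77.1 and 191 RPM in the total inputs and 2.68 and 10.04 RPM in the pulldowns. By edgeR contrasts, 3 of the 5 were higher with the OMM bait than with the ER bait (30.9% of all genes were). Against the cytosolic bait 3 were higher (16.0% of all genes were). The 2.68 RPM of MT-ND5 in the pulldown of replicate 1 rest on few reads, so these differences are loosely measured.

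Among nuclear-encoded mitochondrial genes, 72 were depleted. The 12 lowest include MRPL21 and NDUFS7, which turned enriched over all exons as given above, while the other 10 kept their call. Of the 12 there are 9 of more than 400 aa and 0 of fewer than 200 aa, and 11 of them were also depleted with the ER bait (72.7% of all genes were). FASN, the cytosolic fatty acid synthase that the list assigns to the intermembrane space, fell from 2605 and 1671 to 1252 and 792 RPM (−1.07, SE 0.09, adjusted p=5.7e-08). CASP8, an initiator caspase, fell from 13.2 and 17.3 to 7.8 and 5.98 RPM (−1.26), and VPS13D, a lipid transfer protein, from 53.2 and 56.3 to 25.4 and 31.5 RPM (−0.92). AHCYL1 (−0.98), CRY1 (−0.92) and NBR1 (−0.90) are also among the 12.

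Reads in 5′ UTRs gave a second readout of the same samples that neither the choice of genes nor the fit had used. The classes compared here were, however, split by the fitted CDS change in these samples. Scaled to CDS totals, 5′ UTR reads were 9.69% and 8.81% of CDS reads in the total inputs and 7.17% and 6.24% in the pulldowns. A drop was seen with the cytosolic bait as well, from 10.3% and 14.5% to 5.43% and 5.57%. For the 68 long mitochondrial genes above 1, summed CDS reads rose by 2.18 and 2.27 in the replicates, whereas 5′ UTR reads changed by −0.27 and −0.29. In the 78 short ones CDS reads rose by 1.58 and 1.65 and 5′ UTR reads by 0.00 and −0.11. The 174 long mitochondrial genes not above 1 had −0.56 and −0.57 in 5′ UTRs, and the remaining 6034 genes −0.47 and −0.55. The 95 short mitochondrial genes not above 1 had −0.29 and −0.30. The 5′ UTRs of enriched mitochondrial genes therefore stood above those of the others of their length. The gap in coding sequences was set by the split. With the class taken from 1 replicate and read in the other, long genes above 1 had −0.27 in 5′ UTRs and 2.22 in CDS. The other long genes had −0.57 and 0.10. Short genes above 1 had −0.03 and 1.62, and the other short genes −0.37 and 0.66. The 170 short genes above 1 outside mitochondria resembled the short mitochondrial ones, with −0.08 and −0.15 in 5′ UTRs against 1.49 and 1.5 in CDS. In the 51 genes above 1 of 200 to 400 aa outside mitochondria the 5′ UTRs were at −0.64 and −0.72, below those of the remaining genes. The long mitochondrial class rests on 1202 and 1399 5′ UTR reads in the total inputs and 200 and 524 in the pulldowns. These sums carry no test, and scaling to 5′ UTR totals shifts all classes upward, which turned the long mitochondrial class to 0.18.

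**Figure D5:**
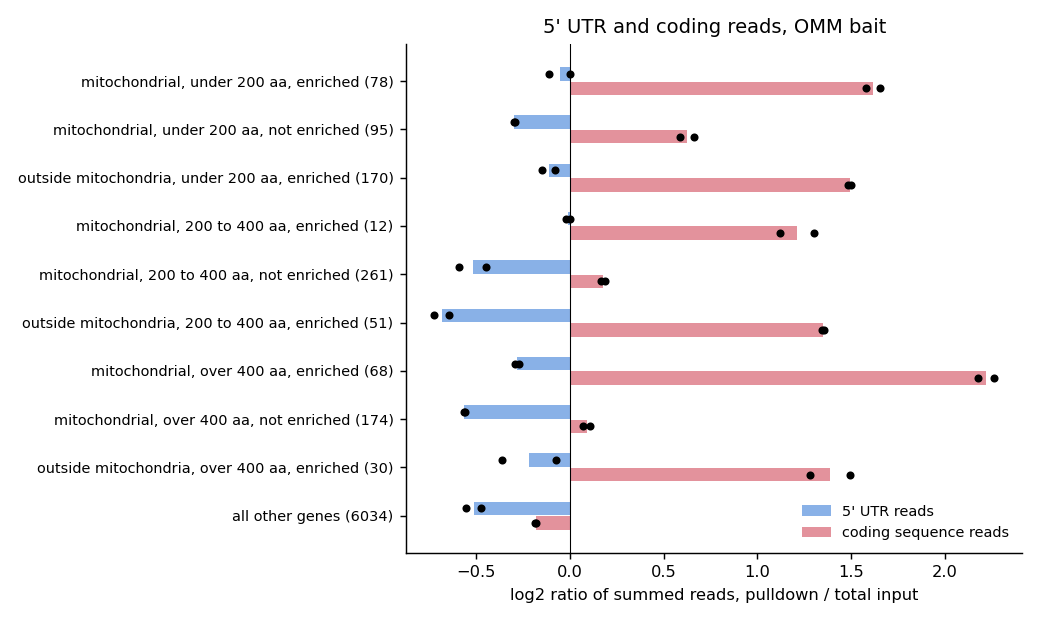
Log2 ratio of summed reads, pulldown over total input, in 5′ UTRs (blue) and coding sequences (red) of gene classes with the OMM bait. Bars are means and black points the 2 replicates; the number of genes is in brackets and enriched means above 1. Coding sequences of long enriched mitochondrial genes stand at 2.22 and their 5′ UTRs at −0.28.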

How the data were processed

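Ribosome profiling of 12 libraries was used (total input and pulldown, 2 lysates each, for the OMM, ER and cytosolic baits). RNA-seq files were not used here. The authors aligned footprints to GRCh38 with TopHat and Bowtie, allowing 1 mismatch, and tallied those of 27 to 36 nt with plastid over positions to which reads align uniquely, each read spread over its central positions. The deposited files give estimated counts, which need not be whole, of reads over exons, coding sequences and 5′ UTRs, and RPKM values made by the authors from them. RPKM values were not analysed, and estimated counts were rounded for the tests. Of 58849 entries, 1079 that name several genes were left out of the tests. They held 5.97 to 8.56% of CDS reads in the OMM samples. Coding lengths and coordinates came from GENCODE 44, and the counted share is the number of counted positions over the coding length. Mitochondrial genes were taken from the study's own gene lists, of which 127 names were not matched to an entry.

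Genes with at least 64 CDS reads in both OMM total inputs were fitted with edgeR 4.0.16 (R 4.3.3, quasi-likelihood F test, limma 3.58.1) over all 12 libraries, with library sizes set to total CDS reads, 1 term per lysate as the replicate block, and 1 pulldown effect per bait. The block follows the study's design, in which a pulldown and its total input come from the same lysate. P-values were two-sided and adjusted by Benjamini-Hochberg over all genes. Differences between baits were contrasts of the same fit. The paper calls its OMM replicates biological, though nothing in the labels says that lysates were independent cultures. The p-values measure the spread between these samples, which may in part be technical. The procedure was also run on simulated data in which only a small set of genes changed in the OMM pulldowns. In the samples themselves 17.0% of genes were enriched and 46.1% depleted. The simulation thus differs from the data and does not bear on these calls. Tables and plots used Python 3.11.15, pandas 2.3.3, numpy 2.4.6 and matplotlib 3.10.9. Secretory genes are those whose protein has a 19-residue window with an average hydropathy on the Kyte-Doolittle scale of 1.6 or more, mitochondrial genes excepted.

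The genes, the 26 function lists and the comparisons were chosen with earlier results of these data known. Named genes are the 12 largest rises and falls, the 12 largest rises outside mitochondria, the 12 lowest mitochondrial genes, and in each list up to 3 members at either end, or all of 6 or fewer. The limit of 50% of the coding length counted, the comparison within a shared folder, the long genes outside mitochondria, partner subunits and protein kinase A subunits were chosen after their values were seen. Alternatives were TMM, DESeq2 1.42.0, other read minima, no replicate block, the 4 OMM samples alone, reads over all exons, a stricter hydropathy and leaving out each OMM lysate.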

Additional observations from a re-analysis of the deposited data

Results flagged for a closer look

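Differences between baits were tested as contrasts in the same edgeR fit, with adjustment over all genes, and 4 pairs of counts stand out. Between the OMM and the ER bait, 2080 of all genes were higher with the OMM bait and 1255 lower, and among nuclear-encoded mitochondrial genes 435 were higher and 48 lower. Between the OMM and the cytosolic bait, 1079 of all genes were higher and 2649 lower, and among nuclear-encoded mitochondrial genes 303 were higher and 66 lower. By the folders in the file headers no cytosolic lysate has both fractions beside the OMM samples. The labels name no sequencing run, and a part of the run in that comparison was not tested.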

How the results depend on the processing

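TMM gave 1814 enriched and 1477 depleted genes, 1067 higher and 1439 lower than with the ER bait, and 1685 higher and 1223 lower than with the cytosolic bait. DESeq2 gave 1706 enriched and 1210 depleted, 907 higher than with the ER bait and 970 lower than with the cytosolic bait. A read minimum 4 times as high, which tests fewer genes, gave 744 enriched and 1960 depleted, 621 lower than with the ER bait and 708 higher than with the cytosolic bait. A minimum of 10 reads gave 1903 lower than with the ER bait. Without the replicate block 515 were enriched and 1022 depleted, 510 were higher than with the ER bait, and 198 were higher and 56 lower than with the cytosolic bait. Leaving out a lysate gave 821 to 947 enriched and 1808 to 2406 depleted genes, 1264 to 1497 higher than with the ER bait and 1661 to 2076 lower than with the cytosolic bait, the lowest numbers each without replicate 2. With 1 lysate left, the OMM samples were assumed to vary like the other groups. The 4 OMM samples alone gave 1236 and 3278, reads over all exons 1181 and 3554, and, chosen after seeing the data, at least 50% of the coding length counted 840 and 2606 of 5282. Relative to all genes, the median of the mitochondrial genes was 0.69 and became 0.90 with this higher minimum, 0.72 with a mean of at least 64, 0.77 over all exons, 0.84 with at least 50% counted, and 0.69 to 0.73 without a lysate. That of secretory genes was 0.08 and became 0.063 with the higher minimum, 0.11 over all exons and 0.25 with a hydropathy of at least 2. That of all other genes was −0.14 and became −0.13 with at least 10 reads, −0.15 with the higher minimum, −0.15 with a mean of at least 64, −0.12 over all exons, −0.12 with at least 50% counted, and −0.13 without either lysate. Relative medians of function lists ranged over the alternatives from −0.15 to 0.11 for glycolytic enzymes, −0.16 to 0.022 for translation factors, 0.038 to 0.48 for the proteasome, −0.028 to 0.18 for plasma membrane carriers and 0.33 to 0.72 for the ER lumen. Scaled to 5′ UTR totals, 5′ UTR changes were 0.17 in short mitochondrial genes not above 1, 0.35 in short genes above 1 outside mitochondria, 0.18 in long mitochondrial genes above 1 and −0.047 in all other genes. Classes above 1.5 gave 0.071 in short genes outside mitochondria, and at least 5 reads gave −0.27 in long mitochondrial genes. NDUFS7 (0.27), RPL11 (1.33) and MRPL21 (1.03) reversed over all exons. Of 264 named genes with a call, 108 lost it without the replicate block, 44 with DESeq2, 36 with TMM, 32 without replicate 1, 54 without replicate 2 and 0 with the 4 OMM samples alone. The causes of these changes were not tested.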
